A study of Mus musculus with 4 samples.

Results

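Genes named as zinc finger factors were taken from a table of RNA sites bound by Ago2 in transformed mouse B cell progenitors. Ago2, an Argonaute protein, holds the microRNAs that pair with target transcripts. Members were the genes whose listed symbol starts with Zfp, Zbtb, Zkscan or Zscan followed by a digit, a choice made on names alone. The rule found 66 of the 1848 genes in the table, with 91 of its 2548 features, where a feature is 1 bound region counted by the authors. Of these, 77 features belonged to 55 Zfp genes and 14 to 11 Zbtb genes. Genes listed under Zkscan or Zscan names were not found, although the RefSeq gene table now calls Zfp192 Zkscan8 and Zfp187 Zscan26. It also calls Zfp238 Zbtb18. The listed symbols are kept here. The rule reads symbols only, and no protein sequence was examined, so a member is a zinc finger gene by name. Zfp91, for example, is best known as a ubiquitin ligase.

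The cells were B cell progenitors from fetal livers of C57BL/6 embryos at E14.5, transformed in culture with a retrovirus that carries the Abelson kinase. Wild-type lines gave 2 libraries, and lines of the genotype Bim3'UTRmut/mut, in which the 3' untranslated region of the apoptosis gene Bim (Bcl2l11) is mutated on both alleles, gave 2. All 4 were labelled with 500 µM 4-thiouridine for 5 hours, crosslinked at 365 nm and precipitated with an Ago2 antibody, a method called PAR-CLIP. All lines carry the viral kinase, so neither genotype stands for an untransformed B cell. The labels call the 2 libraries of a genotype biological replicates and do not say whether a line is a single clone. The comparison asks where Ago2 binding differs when the Bim 3' untranslated region is mutated. No RNA levels were used, so fewer reads at a feature cannot be told apart from fewer transcripts or fewer cells that make them.

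Most proteins of this family bind DNA through repeats of the C2H2 finger, a short fold in which cysteines and histidines hold a zinc ion. Many Zfp genes add a KRAB domain, which recruits the corepressor Trim28 and silences DNA that often derives from transposable elements. Zbtb genes carry a BTB domain instead, which pairs the proteins and recruits corepressors such as Ncor1, and several of them direct lymphocyte fate. Because the finger-coding repeats resemble each other, microRNAs can have several sites in the coding sequence of a single gene. The miR-181 family, abundant in lymphoid progenitors, is known for this kind of site. Its mature sequences, from RefSeq with the build GRCm38.p6, are shown for that reason alone, with the seed (bases 2 to 8) in capitals:
mmu-miR-181a-5p: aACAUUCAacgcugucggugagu
mmu-miR-181b-5p: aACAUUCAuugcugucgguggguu
Both carry the same seed. No deposited value assigns a zinc finger feature to a microRNA, and feature coordinates were not used here.

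The 4 libraries did not stand alike. Reads in all listed features came to 160207 in Wa and 38804 in Wb, both wild type, and to 24625 in Ma and 14539 in Mb, both mutant. Their replicate numbers are not known. Normalized reads are reads divided by the library's size factor, and 1 read is worth 0.272 and 0.921 normalized reads on the wild-type side (Wa and Wb) and 1.62 and 2.21 on the mutant side (Ma and Mb). An interval for a single library is the exact 95% Poisson one and covers no more than counting error. The mutated gene Bcl2l11 summed to 88.6 (Wa) and 216 (Wb) normalized reads for the wild type and 34.0 (Ma) and 104 (Mb) for the mutant over 8 features. Library Mb stood apart in its markers. The 12 features of 6 measured B lineage marker genes, of 16 on the list, summed to 189, 216, 225 and 13.3 normalized reads across Wa, Wb, Ma and Mb. In Mb, 7 of the 12 were at 0, among them both features of Ikzf1 and the single features of Rag1 and Il7r. The 5 features of 3 measured stromal and hepatocyte markers, of 10 on the list, summed to between 4.08 and 9.71 in the other libraries and to 374 in Mb. Those were Vim, Pdgfra and Thbs1. Vim held 4.08, 7.37, 9.71 and 104 normalized reads across Wa, Wb, Ma and Mb. Every Pdgfra and Thbs1 feature had reads in Mb alone. All listed features have at least 5 reads in their highest library, so these had to be high in Mb, and the sum there partly follows from that. Alb, Afp, Ttr, the other listed stromal markers and the listed myeloid and erythroid markers were not analysed here. Most results below that rest on Mb are given with their values in the other mutant library, and the part of these markers in them was not tested.

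Zinc finger features held a small share of the reads in every library, and the genotypes overlapped. The share of all listed reads was 3.32% in Wa (exact 95% binomial interval 3.23 to 3.41), 4.28% in Wb (4.08 to 4.49), 3.76% in Ma (3.53 to 4.01) and 3.24% in Mb (2.96 to 3.54). The wild-type intervals did not meet, and both mutant-side values lay within or just below the range of the wild-type values. The spread came largely from Zfp84, which took 24.8% and 40.0% of the zinc finger reads on the wild-type side (Wa and Wb) and 36.6% and 13.2% on the mutant side (Ma and Mb). Without Zfp84 the shares were 2.52%, 2.61%, 2.42% and 2.83%. The 6 features with the highest means together held 57.5% (Wa) and 64.9% (Wb) of the zinc finger reads for the wild type and 65.3% (Ma) and 40.8% (Mb) for the mutant. The other 85 features thus held a larger part of the zinc finger reads in Mb than in the other libraries.

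**Figure D1:**
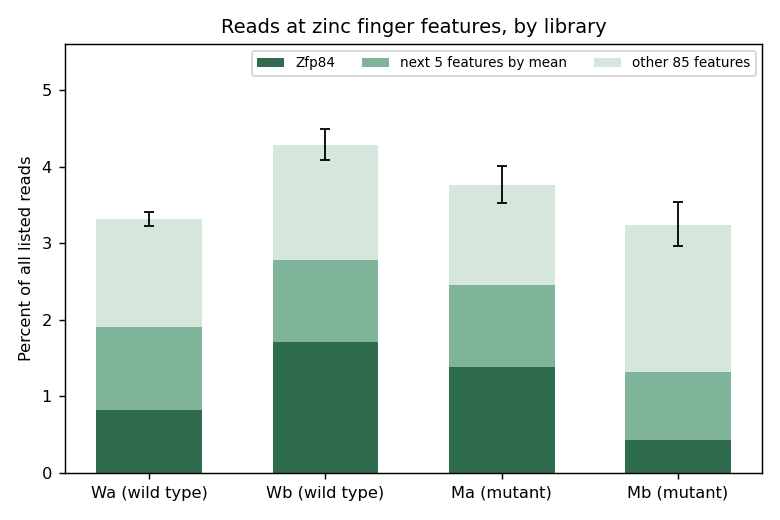
Share of all listed reads at zinc finger features (y axis, percent) in each library (x axis), split into Zfp84, the next 5 features by mean and the other 85; bars on top are exact 95% binomial intervals of the whole share. The whole share runs from 3.24% in Mb to 4.28% in Wb, and the Zfp84 part is smallest in Mb.

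Among the members with the most reads, some had close levels in all 4 libraries and others were low in Mb alone. Zfp84 ranked 6 among all 2548 features by mean. It held 358 normalized reads in Wa (interval 339 to 378), 612 in Wb (566 to 660), 549 in Ma (492 to 610) and 137 in Mb (105 to 176). Ma lay between the wild-type libraries, and Mb lay below both. The change of mutant over wild type in the authors' deposited table was -0.45 on the log2 scale (SE, the standard error, 0.86; unadjusted p = 0.598).

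Zfp275 and the highest features of Zfp597 and Zfp280b were close to level. The highest Zfp597 feature held 102, 128, 104 and 119 normalized reads across Wa, Wb, Ma and Mb, and the authors' deposited table gave a log2 fold change of -0.04 (SE 0.62). Zfp275 held 84.2 and 63.6 on the wild-type side (Wa and Wb) and 71.2 and 73.0 on the mutant side (Ma and Mb), with -0.04 (SE 0.64) in the authors' deposited table. For both genes the mutant-side libraries lay inside the wild-type range. Zfp280b, related to the fly insulator protein suppressor of Hairy wing, held 75.3 (Wa) and 49.7 (Wb) normalized reads for the wild type and 43.7 (Ma) and 66.3 (Mb) for the mutant at its highest feature. The authors' deposited table gave -0.19 for the log2 fold change (SE 0.69, 95% interval -1.55 to 1.18), and Mb lay between the wild-type libraries with Ma slightly under both.

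Zfp238, which encodes the BTB repressor RP58 known from cortical neurons, showed the other pattern. Its highest feature held 123, 109 and 144 normalized reads across Wa, Wb and Ma, against 11.1 in Mb (interval 3.59 to 25.8). The mean of the other libraries was 11.3 times the level in Mb. The authors' deposited table gave -0.49 for the log2 fold change (SE 1.03, unadjusted p = 0.633), and the mutant-side libraries lay on opposite sides of the wild-type ones. In limma's voom fit to the recovered reads, Zfp238 had a log2 fold change of -1.48 with all libraries. It was -3.26 without Ma, with Mb alone on the mutant side, and 0.32 without Mb.

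Zbtb41 held 88.9, 31.3, 68.0 and 17.7 normalized reads across Wa, Wb, Ma and Mb. The wild-type libraries differed from each other here by more than their intervals. Zfp266 held 28.5, 27.6 and 29.1 in Wa, Wb and Ma and 2.21 in Mb, on 1 read. Zfp827, a gene of telomere chromatin, held 50.5, 30.4 and 30.8 against 4.42 in Mb. Zfp11 and Zfp236 were also lowest in Mb, each with 11.1 normalized reads, against 63.1 and 34.0 in Ma. Zfp266, Zfp11 and Zfp236 were named after their values were seen.

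Over the 13 zinc finger features with a mean of at least 20 normalized reads, Ma stayed within 2-fold of the wild-type mean in 13, with log2 ratios from -0.52 to 0.36. Of the 383 features of that size in the table, 81.2% did so. Mb lay more than 4-fold under the mean of the other libraries in 4 of the 13 (30.8%) and in 39.4% of the 383. The share of such low values in Mb was thus not higher among zinc finger features than in the whole table. The B lineage markers were low in the same library, and their part in these values was not tested.

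**Figure D2:**
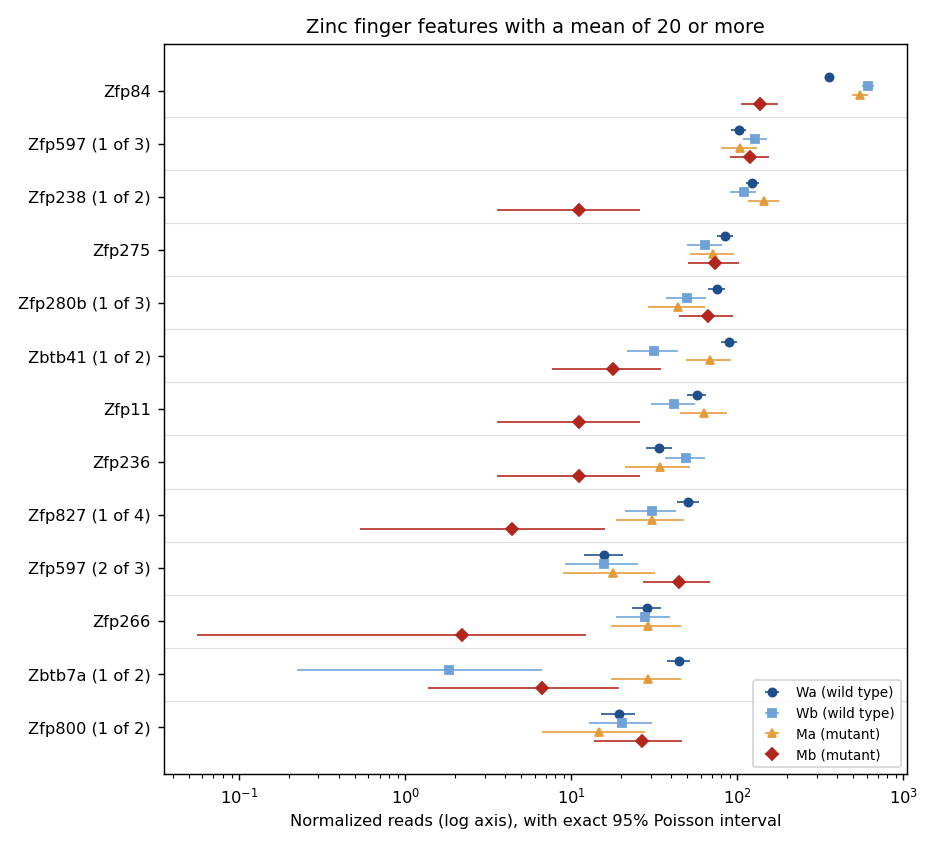
Normalized reads (x axis, log scale) in each library for the 13 zinc finger features with a mean of at least 20, with exact 95% Poisson intervals; numbers in brackets rank the features of a gene by mean. Zfp275 and the highest features of Zfp597 and Zfp280b are close to level across libraries, Zfp597 feature 2 is highest in Mb, and Zfp238, Zfp266 and Zfp827 are low in Mb alone.

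In the fits that used all libraries, no zinc finger feature passed a test adjusted over the table. With the p-values of the authors' deposited table adjusted by Benjamini-Hochberg over all features, 0 of 91 fell under 0.05 (0.0% of the 2548 in the whole table), and the smallest, at Zfp740, was 0.266. Unadjusted p-values under 0.05 stood in the authors' deposited table for 6 of the 91 (6.59%, against 8.48% of all features), 6 of them higher in the mutant (against 7.57%) and 0 lower (against 0.903%). Under 0.01 there was 1 higher (against 1.61%) and 0 lower (against 0.0392%). limma's voom on the recovered reads likewise passed 0 after adjustment (0.0% of all features), with 2 higher (2.94% of all features) and 0 lower (0.157%) at an unadjusted p under 0.05. These shares lie near or below the background of the whole table.

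The deposited log2 fold changes of the members centred slightly below 0. Of the 91, 38 lay above 0 (41.8%, against 47.5% of all features) and 53 below (58.2%, against 52.5%). The median was -0.17, with quartiles of -0.62 and 0.47, in the authors' deposited table, and -0.07 over all features, with quartiles of -0.68 and 0.84. Set against the wild-type mean, with 0.5 added to normalized reads, the members' median log2 ratio was -0.23 for Ma and -0.24 for Mb. Over all features these medians were -0.15 and -0.29. The members' voom median was -0.14 with all libraries, 0.13 without Wa and -0.36 without Wb, and 0.01 without Mb, so its sign was not stable. The median was -0.17 over the 77 Zfp features, 31 above 0 and 46 below, and -0.09 over the 14 Zbtb features, 7 above and 7 below.

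The members separated by genotype about as often as all features did. Both mutant-side libraries lay above both wild-type libraries in 10 of the 91 (11.0%, against 13.1% of all features), and below both in 19 (20.9%, against 20.1%). Taken by itself, Mb exceeded both wild-type libraries in 36 (39.6%, against 40.4%) and lay below both in 39 (42.9%, against 41.7%). Ma exceeded both in 23 (25.3%, against 27.9%) and lay below both in 37 (40.7%, against 36.3%). Mb lay more than 4-fold under the mean of the other libraries in 25 (27.5%, against 32.9%) and more than 4-fold over it in 16 (17.6%, against 21.3%). Over the 91 features the log2 normalized reads of Wa, with 0.5 added, had a correlation of 0.81 with Wb and 0.84 with Ma, and Wb had 0.76 with Ma. Those of Mb with Wa, Wb and Ma were 0.26, 0.33 and 0.34. All 91 points of a pair share the depth of its 2 libraries, and the values are a description only.

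**Figure D3:**
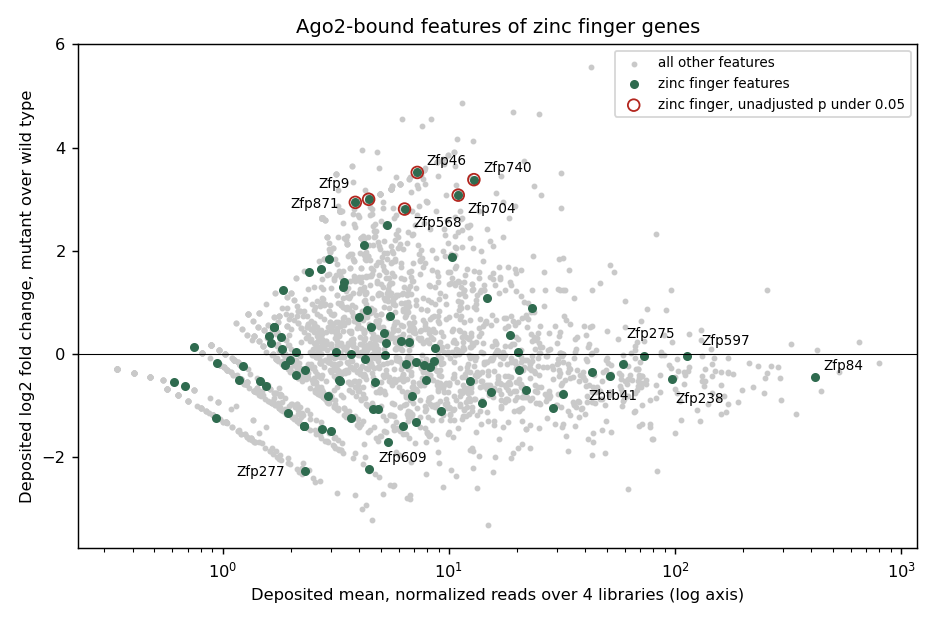
Deposited log2 fold change, mutant over wild type, as the y axis, against the deposited mean in normalized reads (x axis, log scale) for all features (grey) and the 91 zinc finger features (green), with the 6 at an unadjusted p under 0.05 ringed. The ringed features lie between 2.81 and 3.52 at means from 3.86 to 12.9, and the features with the highest means lie near or below 0.

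Zfp740 was the zinc finger gene with the smallest p, and of the 6 the one with at least 12 reads in both mutant-side libraries. It held 1.63 normalized reads in Wa (6 reads, interval 0.598 to 3.55), 1.84 in Wb (2 reads, 0.223 to 6.66), 19.4 in Ma (12 reads, 10.0 to 33.9) and 28.7 in Mb (13 reads, 15.3 to 49.1). The groups did not overlap, and neither mutant-side interval met a wild-type one. The authors' deposited table gave 3.38 for the log2 fold change (SE 0.94, 95% interval 1.53 to 5.24, unadjusted p = 0.00034). Its voom log2 fold change was 3.64 with all libraries, and 3.40 without Mb and 3.96 without Ma. Each fit without a mutant-side library leaves a single library for the mutant, so it measures no spread within that genotype. The 6 were picked by a fit to the reads of all libraries, so no fit that leaves a library out can test them.

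In the other 5 features at an unadjusted p under 0.05, the reads lay mainly in Mb. Zfp704 held 0.815, 1.84 and 1.62 normalized reads across Wa, Wb and Ma against 39.8 in Mb, and the authors' deposited table gave 3.08 for the log2 fold change (SE 1.25, unadjusted p = 0.014). Without Mb its voom log2 fold change was 1.04, beside 0.93 for Zfp46, 1.24 for the first Zfp568 feature and 1.98 for the first Zfp871 feature, while Zfp9 had no reads left. Zfp46 had 1 and 0 reads on the wild-type side (Wa and Wb) and 0 and 13 on the mutant side (Ma and Mb), and Zfp9 had 8, all of them in Mb. In the authors' deposited table these were given log2 fold changes of 3.52 (SE 1.45) and 3.00 (SE 1.37). The highest Zfp871 feature had 2 (Wa) and 0 (Wb) reads for the wild type and 1 (Ma) and 6 (Mb) for the mutant, with 2.94 (SE 1.43) in the authors' deposited table. Ma held at most 1 read at each of these features and at the first Zfp568 feature. The measured stromal markers were high in Mb too, under the limit given for them above, and their part in these values was not tested.

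No feature of the table had fewer than 5 reads in its highest library. A feature that entered through Mb alone therefore had to be high there, and its fold change is no independent sign of a genotype difference. Zfp9 was the only member read in Mb alone (1.1% of members, against 5.14% of all features). Zfp46, the first Zfp704 and Zfp871 features, the second Zfp521 feature and every Zfp568 feature reached 5 reads in no library but Mb. The same limit holds for them.

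Zfp568, a KRAB gene whose protein represses a placental promoter of Igf2, had 3 features, each highest in Mb. The first held 3, 1, 1 and 10 reads across Wa, Wb, Ma and Mb. Reads at the second were 2, 1, 0 and 9, and at the third 4, 1, 1 and 6. Summed over the gene this was 2.45 and 2.76 normalized reads on the wild-type side (Wa and Wb) and 3.24 and 55.3 on the mutant side (Ma and Mb), so Ma lay close to the wild-type libraries. Log2 fold changes in the authors' deposited table were 2.81 (unadjusted p = 0.0297), 2.50 (0.0727) and 2.12 (0.102). The features share a transcript and are not independent, and whether they overlap is not given. A voom fit without Ma compared Mb with both wild-type libraries, and all 3 passed there (adjusted p from 0.0365 to 0.0473), among 10 zinc finger features and 14.0% of all features. With Mb left out it passed 0.

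**Figure D4:**
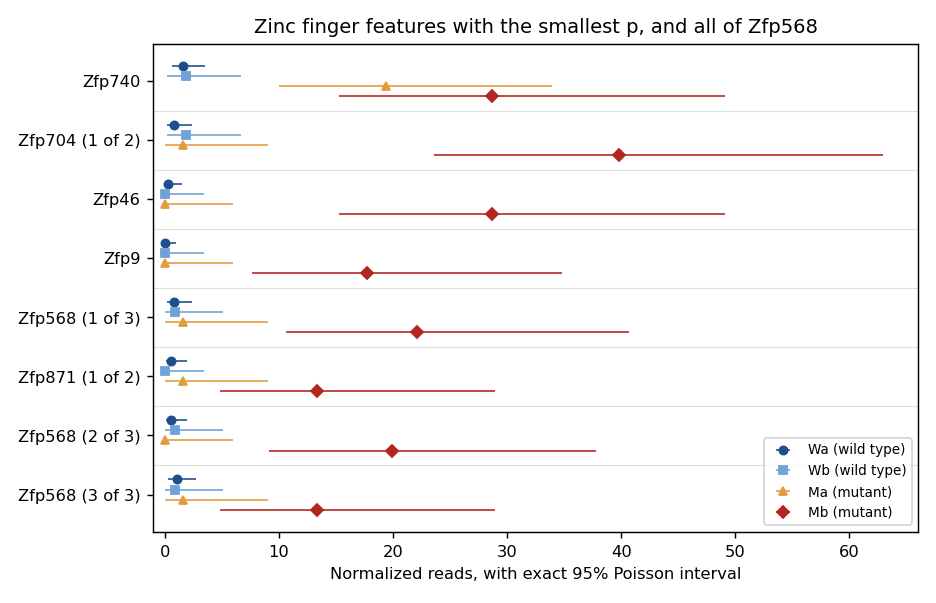
Normalized reads (x axis) in each library for the 6 zinc finger features with an unadjusted p under 0.05 and the other Zfp568 features, with exact 95% Poisson intervals. Zfp740 is high in Ma and Mb, and the other features are high in Mb alone.

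No zinc finger feature was lower in the mutant at an unadjusted p under 0.05. The smallest p in that direction belonged to Zfp609, a cofactor of the Integrator complex, with 5.98 and 10.1 normalized reads for the wild type against 1.62 (Ma) and 0 (Mb). The authors' deposited table gave -2.23 for the log2 fold change (SE 1.41, unadjusted p = 0.113, Benjamini-Hochberg adjusted p = 0.755). Zfp277, which acts with Polycomb proteins at the Ink4a locus, had 7 reads in Wa, 8 in Wb and 0 in both mutant-side libraries, with -2.26 (SE 1.49) in the authors' deposited table. The exact interval of a 0 reaches 5.97 normalized reads in Ma and 8.16 in Mb. The wild-type levels of Zfp277 were 1.90 and 7.37, both within that of Mb, so a lower level there was not detectable at this depth.

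Zfp217, an oncogene product found in CtBP and Lsd1 complexes, had 4.89 and 12.9 normalized reads on the wild-type side and 1.62 and 2.21 on the mutant side at its highest feature, with -1.71 (SE 1.26) in the authors' deposited table. The second Zfp217 feature went the other way in Ma, with 4.08, 4.61 and 9.71 normalized reads in Wa, Wb and Ma and 2.21 in Mb. For Zfp281, a regulator of pluripotent cells, the second feature had 13.6 and 5.53 against 1.62 and 4.42, with -1.40 (SE 1.19) in the authors' deposited table. Its first feature had 4.62 and 12.0 against 4.86 and 13.3, so the groups overlapped. Of Zfp367, the second feature had 14.1 and 7.37 against 4.86 and 2.21, with -1.32 (SE 1.13) in the authors' deposited table. In each of these lower features both mutant-side libraries lay under both wild-type libraries, on 3 reads or fewer in each mutant-side library. Like Zfp609 and Zfp277, they reached 5 reads in wild-type libraries alone, so they had to be high there to be listed. Their lower level on the mutant side is therefore no independent sign of a genotype difference.

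Several features of 1 gene often disagreed. Of the 66 genes, 18 had more than 1 feature (27.3%, against 26.6% of all genes), with 43 features in all. In 4 of the 18 every deposited log2 fold change lay above 0, in 2 every one lay below, and in 12 the signs were mixed. One sign throughout was thus found in 33.3% of the 18 and in 53.7% of the 492 such genes in the table. For genes with exactly 2 features, the shares were 41.7% of 12 and 64.1% of 337. Most of these features have few reads, and a sign near 0 carries little.

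Zbtb7a gave the clearest case. Its gene product LRF steers lymphoid progenitors toward the B lineage. The first feature held 44.3 normalized reads in Wa (interval 37.8 to 51.6), 1.84 in Wb (0.223 to 6.66), 29.1 in Ma (17.3 to 46.0) and 6.63 in Mb (1.37 to 19.4). The second held 2.45, 4.61 and 3.24 in Wa, Wb and Ma and 31.0 in Mb (16.9 to 51.9). Wa and Ma were high at the first and Mb at the second, so neither feature split by genotype. The log2 fold changes in the authors' deposited table were -0.30 (SE 1.20) and 1.89 (SE 1.14, unadjusted p = 0.0962). The first turned to 0.71 in the voom fit with all libraries.

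Zfp704 and Zfp871 also differed by feature. The second Zfp704 feature held 6.25, 0.921, 3.24 and 4.42 normalized reads in Wa, Wb, Ma and Mb, against 39.8 in Mb at the first. Relative to the mean of the other libraries, Mb had a log2 ratio of 4.39 at the first and 0.31 at the second. In Zfp871 these ratios were 3.50 and -2.05, although the second rests on 0 reads in Mb. Zfp827 had 4 features with ratios of -2.94, 1.97, 0.52 and -1.81, of which the 3 lower by mean had at most 7 reads in any library. Zfp521, a cofactor that opposes the B cell factor Ebf1, had 3 features with ratios of 1.48, 3.06 and 0.95. Summed over the gene, Zfp521 held 10.6 (Wa) and 6.45 (Wb) normalized reads for the wild type and 1.62 (Ma) and 26.5 (Mb) for the mutant, and the mutant-side libraries fell on opposite sides of the wild-type ones.

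For Zfp597, Zfp280b and Zfp367 the sums over features lay closer together. The 3 Zfp597 features summed to 118, 148, 123 and 166 normalized reads in Wa, Wb, Ma and Mb, although the second alone held 44.2 in Mb against 15.7 to 17.8 elsewhere. The 3 of Zfp280b summed to 86.4, 59.9, 50.2 and 79.6, and those of Zfp367 to 29.3, 22.1, 17.8 and 15.5. For Zfp367 both mutant-side sums lay under both wild-type sums. Other sums lay further apart. Both Zfp91 features were highest in Mb, with 33.2 and 11.1 normalized reads against 9.71 and 3.24 in Ma. They had log2 fold changes of 0.36 and 0.73 in the authors' deposited table. Zfp91 summed to 16.8, 23.0, 12.9 and 44.2 in Wa, Wb, Ma and Mb, with Ma under both wild-type libraries and Mb above both. Both Zfp654 features had 0 reads in Mb, against 4.86 and 1.62 normalized reads in Ma. The Zfp800 features had 0.04 and -0.54 in the authors' deposited table.

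**Figure D5:**
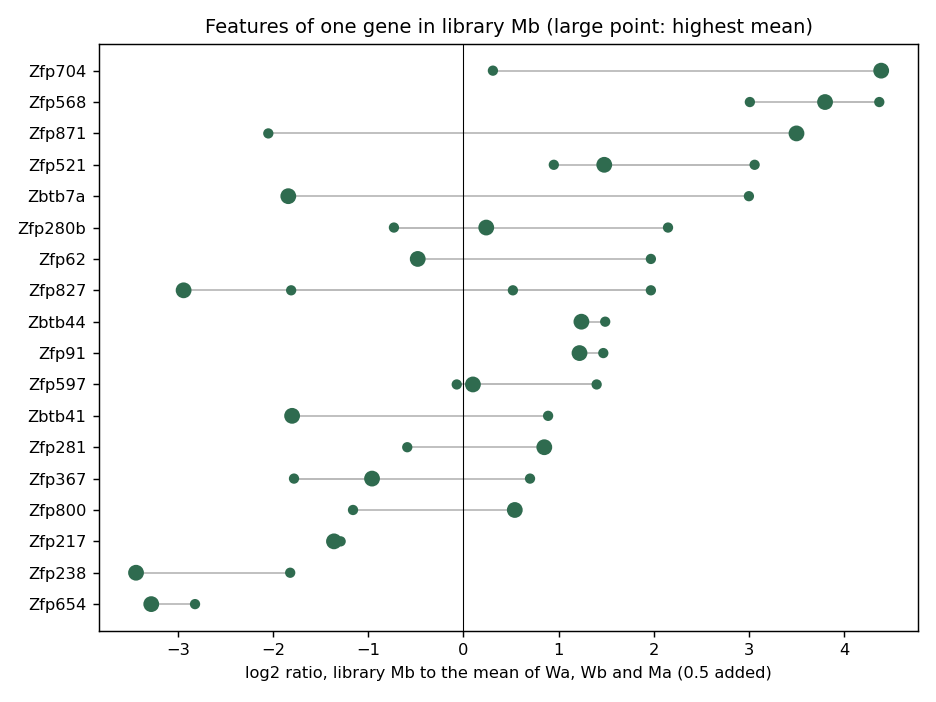
Log2 ratio of library Mb to the mean of Wa, Wb and Ma (x axis, 0.5 added to normalized reads) for each feature of the 18 zinc finger genes with more than 1 feature (y axis); the large point is the feature with the highest mean. Features of Zfp568 lie together between 3.01 and 4.37, and those of Zbtb7a lie at -1.84 and 3.00.

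No feature of the remaining Zbtb genes had an unadjusted p under 0.05 in the authors' deposited table, although the libraries of some separated by genotype. Zbtb44 had 4.35, 13.8, 14.6 and 26.5 normalized reads across Wa, Wb, Ma and Mb at its highest feature, with both mutant-side libraries highest, and a log2 fold change of 1.09 (SE 0.93) in the authors' deposited table. Its second feature had 0.85 (SE 1.24) in the authors' deposited table. The second Zbtb41 feature had 6 and 0 reads on the wild-type side (Wa and Wb) and 3 and 2 on the mutant side (Ma and Mb). In normalized reads this was 1.63 and 0 against 4.86 and 4.42, so both mutant-side libraries lay above both wild-type ones. The authors' deposited table gave 1.64 (SE 1.37). The next 3 Zbtb genes were named after their values were seen. Zbtb33 encodes Kaiso, which binds methylated DNA, and had 1.59 in the authors' deposited table on 5, 0, 1 and 3 reads in Wa, Wb, Ma and Mb. In normalized reads this was 1.36, 0, 1.62 and 6.63, with both mutant-side libraries above both wild-type ones. Zbtb7b encodes ThPOK, the factor of CD4 T cell fate, and had -1.46 in the authors' deposited table on 19, 4, 0 and 1 reads in the same order. Its normalized reads were 5.16 and 3.68 for the wild type against 0 and 2.21 for the mutant, lower in both mutant-side libraries. Zbtb4 had 0.04 in the authors' deposited table.

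A share of the members was not read in Mb at all. Reads were 0 in Mb for 21 of the 91 features (23.1%, against 25.2% of all features), in Ma for 18 (19.8%, against 23.7%), in Wb for 14 (15.4%, against 18.1%) and in Wa for 1 (1.1%, against 7.1%). For 17 of the 21 the 0 says little, since the mean of the other libraries lies under 6.63 normalized reads, the worth of 3 reads in Mb, and the exact interval of a 0 in Mb reaches 8.16. In the other 4 that mean exceeded both limits. They were Zfp866, Zfp518a, Zfp710 and Zfp707, with means over the other libraries of 20.5, 11.5, 11.0 and 9.51, a choice made once their values were seen. In each of the 4, Ma was at or above the wild-type mean: Zfp866 held 18.5, 22.1 and 21.0 normalized reads across Wa, Wb and Ma. For the others a wild-type library lay under 8.16. Wb held 3.68 for Zfp518a and 2.76 for Zfp710, and Wa held 5.44 for Zfp707.

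Genes that work with or resemble the members were also examined, from lists drawn up by function. Other C2H2 zinc finger genes outside the name rule were measured for 24 of 88, with 42 features, of which 22 had a log2 fold change above 0 and 20 below. Ikzf1 stands on this list and on that of B lineage markers. The median was 0.01, against -0.07 over all features, and 3 of the 42 were higher at an unadjusted p under 0.05, where 7.57% of all features were, and 0 lower. That is near the background, and the 3 are named by the rule of smallest p. Bcl11b, a T cell factor, had 3.85 (unadjusted p = 0.00442) in the authors' deposited table on 18 reads, all in Mb. Trps1, a GATA-type repressor, had 3.48 (unadjusted p = 0.0147) in the authors' deposited table on 1 read in Ma and 5 in Mb. Another Trps1 feature had 2.63 there on 5 reads, all in Mb, and a further one 0.93 on 7 reads in Wa and 3 in Mb. Egr1, an immediate early factor, had 2.43 (unadjusted p = 0.0313) in the authors' deposited table, with 1.90, 1.84, 4.86 and 24.3 normalized reads in Wa, Wb, Ma and Mb.

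Partners of the KRAB proteins were measured for 3 of 19 genes, with 6 features, 3 above 0 and 3 below, and a median of 0.10. A feature of Cbx5, the heterochromatin protein HP1 alpha, had 2.97 (unadjusted p = 0.0133) in the authors' deposited table, with 2 (Wa) and 2 (Wb) reads for the wild type and 3 (Ma) and 11 (Mb) for the mutant. The other Cbx5 feature had 0.86, Morc3 from -0.72 to -0.11 and the DNA methyltransferase gene Dnmt3a 0.30 in the authors' deposited table. Partners of the BTB proteins were measured for 3 of 16 genes, Tbl1xr1, Sin3b and Rbx1, with 6 features, 2 above 0 and 4 below. Their median was -0.24, and none had an unadjusted p under 0.05 in the authors' deposited table. Over all features there, 47.5% lay above 0, the median was -0.07 and 8.48% had an unadjusted p under 0.05. With 6 features a list, these counts say little about the partners. Trim28, Ncor1 and the Zfp36 family were not analysed here.

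The listed genes were also set against all genes of the family. RefSeq names 465 protein-coding mouse genes by the same pattern, and 68 of them had a listed feature (14.6%), against 1847 of 21896 protein-coding genes (8.44%). The share was 13.6% of 397 Zfp genes and 29.3% of 41 Zbtb genes, against 1 of 11 Zkscan and 1 of 16 Zscan genes. Which genes these cells express was not measured here, and no test was made. Among member genes, 2 pairs were direct neighbours among protein-coding genes, Zbtb34 with Zbtb43 and Zbtb10 with Zfp704. The typical member was bound at a level like that of other genes, with a median mean of 4.55 normalized reads against 4.85 over all features, and 70 of the 91 had a mean under 10. At such levels a single read in Mb, worth 2.21 normalized reads, moves a feature's value by a large part.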

How the data were processed

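Ago2 PAR-CLIP libraries of 2 wild-type and 2 Bim3'UTRmut/mut lines were compared in 1 table that the authors deposited. Per the submitters' processing notes, CASAVA 1.8.2, BWA 0.7.12-r1039 and DESeq2 were used, with the builds mm9 and NCBIM37; the sources used here give no parameters. The deposited mean is a signal, the mean over libraries of reads divided by size factors. The deposited log2 fold change is shrunken towards 0, mutant over wild type as the table's name gives it, and the deposited p-value is unadjusted. Benjamini-Hochberg adjustment ran over all 2548 features. Standard errors were computed as fold change over the normal quantile of p, which assumes a Wald test.

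The deposited means yielded whole reads for each library: a single solution existed for 100.0% of features, off by at most 4.9e-13 normalized reads, and 0 of 1500 shifted means had any. Assigning libraries to genotypes this way matched the sign of 98.8% of the deposited fold changes, against 67.6% for the best other split. Their replicate numbers stay unknown. limma 3.58.1 (voom, R 4.3.3) was run on these reads with the size factors as an alternative. Both scripts were tested on simulated data. The voom fit there missed most of the smaller changes after adjustment and had a share of false calls above its threshold, so neither its adjusted calls nor their absence is firm. scipy 1.17.1 gave the intervals. With 2 libraries a genotype, p-values measure the spread of these lines alone.

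Genes were matched to RefSeq names of GRCm38.p6 by Entrez ID, and all 66 matched. No coordinates were used. The genes named are members at an unadjusted p under 0.05, the 5 features of each direction with the smallest p, the 6 with the highest mean, genes with several features and up to 3 genes of each other list. Members and lists were chosen with earlier results of these data known.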

Additional observations from a re-analysis of the deposited data

How the results depend on the processing

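The count of 6 features higher in the mutant at an unadjusted p under 0.05 was 1 at a threshold of 0.01, 2 with limma's voom and 2 with voom scaled by listed reads, and ran from 1 to 12 as voom left out each library. The lower count ran from 0 to 4 and the adjusted count from 0 to 10 in those fits, both highest without Ma, where Mb alone stands for the mutant and is assumed to vary like the other libraries. The same counts over all features were also highest without Ma, so this rise was not particular to zinc finger features. The median of -0.17 was -0.01 with voom scaled by listed reads, which moved the median of all features from 0.05 to 0.17. The members' median ran from -0.36 without Wb to 0.13 without Wa. Shares of reads without Zfp84 were 2.52%, 2.61%, 2.42% and 2.83%. Counting 1 feature per gene or using current symbols left the higher and lower counts unchanged. Among features at or above the median mean, 4 of the 6 higher ones remained and the lower count stayed at 0. None of these settings changed the sign of the median. Of 50 named features, the log2 fold change turned sign with voom in 5: Zbtb7a feature 1 (0.71, and 0.68 scaled by listed reads), Zfp238 feature 2 (0.17 and 0.35), Zfp275 (0.01 and 0.13), Zfp521 feature 1 (-0.15 and -0.05) and Zfp597 feature 3 (0.57 and 0.71). Zfp597 feature 1 turned to 0.11 under the second scaling. Leaving out 1 library turned 5 without Ma, 17 of 49 without Mb, 10 without Wa and 5 without Wb. The cause was not tested. The ranges over these fits were Zbtb41 feature 1 (-1.59 to 0.29), Zbtb7a feature 1 (-1.49 to 2.73), Zfp217 feature 2 (-0.46 to 1.20), Zfp238 feature 1 (-3.26 to 0.32), Zfp238 feature 2 (-0.70 to 1.69), Zfp275 (-0.21 to 0.19), Zfp280b feature 1 (-0.50 to 0.14), Zfp281 feature 1 (-0.50 to 1.05), Zfp367 feature 3 (-0.02 to 0.77). The ranges of the next were Zfp521 feature 1 (-1.34 to 1.20), Zfp521 feature 2 (-0.54 to 3.40), Zfp521 feature 3 (-1.25 to 2.09), Zfp597 feature 1 (-0.19 to 0.14), Zfp597 feature 3 (-0.83 to 1.59), Zfp62 feature 2 (-0.86 to 1.91), Zfp654 feature 1 (-1.75 to 0.70), Zfp704 feature 2 (-0.46 to 1.75), Zfp800 feature 1 (-0.38 to 0.47), and Zfp800 feature 2 (-0.96 to 0.27), Zfp827 feature 2 (-0.86 to 1.91), Zfp84 (-1.76 to 0.25), Zfp871 feature 2 (-0.86 to 0.27), Zfp91 feature 1 (-0.62 to 1.08), Zfp91 feature 2 (-0.03 to 2.18).
No paired analysis was possible because the recovered libraries carry no replicate numbers. Reads limit most features: the median member had 14 and 4 reads in the wild-type libraries and 2 and 2 in the mutant ones.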
